A study of Homo sapiens with 4 samples.

Results

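The annexins are a family of calcium-dependent membrane-binding proteins. Here they were taken as the 10 gene symbols ANXA1, ANXA2, ANXA3, ANXA4, ANXA5, ANXA6, ANXA7, ANXA8, ANXA10 and ANXA11, out of 25559 gene symbols in each count table. All 10 were present in the tables, and 7 of them passed the filter on low counts, which left 12967 genes in all. The libraries came from HGC-27, a human cell line of undifferentiated gastric carcinoma. They comprised 2 libraries of control cells, labelled with the wildtype genotype, and 2 of cells with a RUNX3 knockout (RUNX3 KO), made by lentiviral delivery of Cas9 with 1 guide, puromycin selection and single-cell cloning. The sources used here state neither how many clones stand behind the RUNX3 KO libraries, nor whether the control cells carried a vector or were cloned, nor whether replicates came from separate cultures. The p-values therefore measure only the spread between these libraries, which may be technical, and an effect of RUNX3 loss and a difference between clones cannot be told apart.

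Annexins share a core of repeats that binds acidic phospholipids, above all phosphatidylserine, when calcium rises. Each member adds its own N-terminal region, through which it binds partners such as S100 proteins or penta-EF-hand proteins. The family is known for organizing membranes at the cell surface and on endosomes, for linking membranes to actin and for sealing wounded plasma membranes.

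Each library had between 11731401 and 12110876 reads on genes. Conditions were compared by the quasi-likelihood test of edgeR with Benjamini-Hochberg adjustment over all tested genes, and a gene was called at an adjusted p under 0.05. Log2 fold changes are RUNX3 KO over control, and values after ± are the SD of 2 libraries. RUNX3, the targeted gene, had 351 and 308 counts in control and 225 and 185 in RUNX3 KO libraries (log2 fold change -0.70, SE 0.0961, edgeR adjusted p = 1.43e-09). Its transcript was thus lower in both RUNX3 KO libraries but still counted, while the study reports no RUNX3 protein in knockout cells by immunoblot. Without RUNX3 KO replicate 2 the log2 fold change was -0.55 and the call was lost (edgeR adjusted p = 0.0649). Of markers for the labelled cell type, EPCAM, KRT19 and all 7 gastric genes (CLDN18, MUC5AC, MUC6, TFF1, TFF2, PGC and GKN1) had at most 1 count in any library. CDH1 had 15 and 21 counts in control and 30 and 32 in RUNX3 KO libraries (log2 fold change 0.77, edgeR adjusted p = 0.0238). KRT8 went from 19 and 11 to 72 and 81 counts (log2 fold change 2.33, edgeR adjusted p = 1.90e-13). KRT18 was not tested, with 0 and 0 counts in control and 2 and 14 in RUNX3 KO libraries. The summed level of the 5 epithelial markers was 2.80 to 2.96 CPM (counts scaled to a common library size) in control and 8.81 to 10.6 CPM in RUNX3 KO libraries, and that of the fibroblast-type genes DCN, LUM and PDGFRA was 337 to 338 and 237 to 243 CPM. Each of these 3 was itself called lower, DCN and LUM at -0.39 and -0.42 on the log2 scale and PDGFRA at -2.33. Endothelial markers PECAM1 and CDH5 were at 0 in every library, and the endothelial sum was 0.0847 to 0.169 CPM in control and 0.333 to 0.339 CPM in RUNX3 KO libraries. Of the leukocyte markers CD3E was at 0 in every library, PTPRC had at most 5 counts and CD14 at most 4. The part of these differences in the results on annexins was not tested, and fewer cells of a kind and less RNA per cell cannot be told apart in bulk libraries.

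ANXA5 and ANXA11 were the members with the largest differences, in opposite directions. The RefSeq promoter windows that hold the letters of the core RUNX motif are shown for both, because the data come from a knockout of a RUNX factor. Each line is read 5′ to 3′ on the strand of the gene, covers the 250 bases before an annotated start site, and has the matching letters in capitals (build GRCh38.p14, minus strand for all). The first is chr4:121696981-121697230, the next chr10:80205809-80206058 and the last chr10:80204492-80204741.
ANXA5: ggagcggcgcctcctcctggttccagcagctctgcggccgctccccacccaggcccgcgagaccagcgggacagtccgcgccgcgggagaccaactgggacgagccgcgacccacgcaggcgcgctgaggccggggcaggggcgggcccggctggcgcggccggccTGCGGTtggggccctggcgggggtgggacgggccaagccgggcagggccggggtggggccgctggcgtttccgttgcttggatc
ANXA11, start site 1: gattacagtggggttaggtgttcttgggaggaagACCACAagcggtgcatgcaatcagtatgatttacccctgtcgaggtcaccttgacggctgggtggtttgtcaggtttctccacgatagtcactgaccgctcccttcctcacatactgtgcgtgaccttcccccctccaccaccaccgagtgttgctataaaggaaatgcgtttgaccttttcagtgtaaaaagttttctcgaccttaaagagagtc
ANXA11, start site 3: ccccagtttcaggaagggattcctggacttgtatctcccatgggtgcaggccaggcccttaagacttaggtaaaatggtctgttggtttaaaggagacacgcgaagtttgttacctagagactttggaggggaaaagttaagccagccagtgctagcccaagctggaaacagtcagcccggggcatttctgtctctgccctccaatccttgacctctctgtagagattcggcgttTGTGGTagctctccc

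The letters searched were TGTGGT and TGCGGT on either strand, which read as ACCACA and ACCGCA on the other strand. The windows ran from 250 bases before to 50 bases after each start, and 9 of the 10 members had 13 windows in all, since ANXA8 had none. A match lay in 5 windows of 4 members, ANXA3, ANXA5, ANXA6 and ANXA11. In ANXA5 it began 84 bases before the start, in ANXA11 216 bases before start site 1 and 15 bases before start site 3, in ANXA3 26 bases before and in ANXA6 1 base before start site 1. No match was found at start site 2 of ANXA6 or of ANXA11, nor in the windows of ANXA1, ANXA2, ANXA4, ANXA7 and ANXA10. Of all 35116 windows of the same length, 19.6% held a match. A match describes these letters only, and the counts do not show which start site was used.

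Of the 7 annexins tested, 4 were called, beside 48.9% of all tested genes. Of these, 2 were lower and 2 higher in RUNX3 KO cells, beside 24.4% and 24.5% of all tested genes, so the members' share of calls was close to that of genes in general. ANXA5 and ANXA6 fell, ANXA11 rose, and ANXA1 was called higher at the edge of the threshold. No member reached a fold change of 2 in either direction at an unadjusted p of 0.05 by edgeR, a criterion met by 6.12% of all tested genes (4.01% lower and 2.11% higher), and none did by DESeq2 or limma-voom. At an unadjusted p under 0.05 alone, 6 of the 7 passed, beside 7022 of the 12967 tested genes. The median size of the difference over the 7 members was 0.15 on the log2 scale, beside 0.19 over all tested genes. The 4 libraries allow no exact permutation p under 0.333, so single genes rest on edgeR's model, which shares information on the spread across genes.

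**Figure D1:**
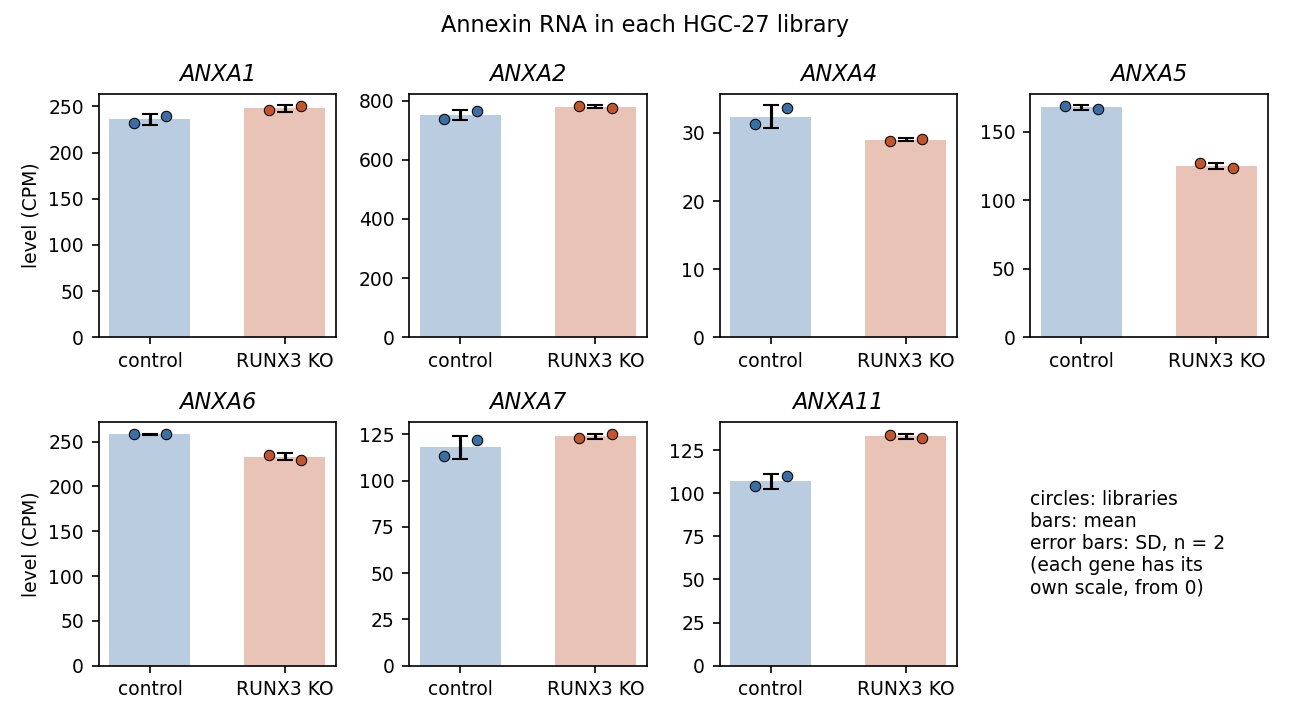
Level of each of the 7 tested annexins, in CPM on the vertical axis from 0 with its own scale per gene, for control and RUNX3 KO. Circles are libraries, bars the mean and error bars the SD of 2 libraries; the circles of ANXA5 drop from 167 and 169 to 124 and 127 CPM, and those of ANXA11 go up from 104 and 110 to 132 and 134 CPM.

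In each of the 7 members the CPM of the groups did not overlap, which was also so for 72.7% of all tested genes. The plot of levels by library shows how little the replicates of a group differed, with the widest relative gaps in control cells for ANXA4 and ANXA7.

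ANXA1 and ANXA2 act mainly at the plasma membrane. ANXA1 is known as a glucocorticoid-regulated protein that limits inflammation, and ANXA2 as the partner of S100A10 in a complex that binds actin and plasminogen. Genes are placed here on GRCh37. ANXA2, at 60639333 to 60695082 of chromosome 15 (minus strand), had 8724 and 9016 counts in control and 9239 and 9315 in RUNX3 KO libraries. The 2 RUNX3 KO libraries lay just above the control libraries, at 779 ± 5.63 against 751 ± 17.7 CPM. Its log2 fold change of 0.05 did not pass the test (95% interval 0.00 to 0.10, edgeR adjusted p = 0.0648). ANXA2 was called with limma-voom (adjusted p = 0.0449) and without control replicate 2 (edgeR adjusted p = 0.0125), with log2 fold changes of 0.05 and 0.07, and its adjusted p ranged from 0.0125 to 0.404 over 12 alternatives.

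ANXA1 (chromosome 9 from 75766781 to 75785309, plus strand) had 2734 and 2829 counts in control and 2899 and 3012 in RUNX3 KO libraries. Both RUNX3 KO libraries lay above both control libraries, at 248 ± 3.48 against 236 ± 5.76 CPM. This is 0.07 on the log2 scale (SE 0.0324, edgeR adjusted p = 0.0498). This call was lost in 10 of 12 alternatives, with adjusted p from 0.0295 to 0.313, among them 0.284 with DESeq2, 0.052 with limma-voom and 0.0609 with a block for the replicate number.

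ANXA5, ANXA6 and ANXA4 are known as binders of exposed phosphatidylserine and as components of the membrane repair cap. ANXA5 forms lattices on membranes and is the probe used to stain apoptotic cells. Its gene spans 122589101 to 122618150 of chromosome 4 (minus strand). ANXA5 had 1995 and 1967 counts in control and 1497 and 1491 in RUNX3 KO libraries. The drop was many times the gap between replicates of either group. Its level fell by 25.3%, from 168 ± 1.63 to 125 ± 1.99 CPM (log2 fold change -0.42, SE 0.0388, 95% interval -0.50 to -0.34, edgeR adjusted p = 1.86e-16). Among all tested genes, 22.7% had a larger difference in either direction, so the size of the fall was not unusual in this comparison. Leaving out 1 library at a time gave -0.43 to -0.40 on the log2 scale, and the call held in all 12 alternatives.

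ANXA6, which carries a tandem pair of annexin cores and is known for its link to cholesterol-rich late endosomes, lies on chromosome 5 from 150480267 to 150537376 (minus strand). Its canonical transcript has 26 exons, where those of the other members have 12 to 16. It had 3053 and 3049 counts in control and 2778 and 2765 in RUNX3 KO libraries. Its level fell by 9.99%, from 258 ± 0.163 to 233 ± 3.8 CPM (log2 fold change -0.15, SE 0.0320, edgeR adjusted p = 3.70e-05). The call was lost without RUNX3 KO replicate 2 (log2 fold change -0.14, edgeR adjusted p = 0.0555) and held in the other 11 alternatives.

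ANXA4 (chromosome 2 from 69871557 to 70054244, plus strand) is known for bending membranes at wound edges. It was the least abundant of the tested members, with 369 and 397 counts in control and 340 and 350 in RUNX3 KO libraries. At 32.4 ± 1.69 and 29.0 ± 0.217 CPM, its log2 fold change of -0.16 did not pass the test (95% interval -0.32 to -0.01, edgeR adjusted p = 0.0789). The estimate was close to that of ANXA6, but with fewer counts its SE was 0.0793. With library size alone or upper-quartile scaling the value was -0.18 and passed, with adjusted p of 0.0473 and 0.0467, while DESeq2 gave 0.394.

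**Figure D2:**
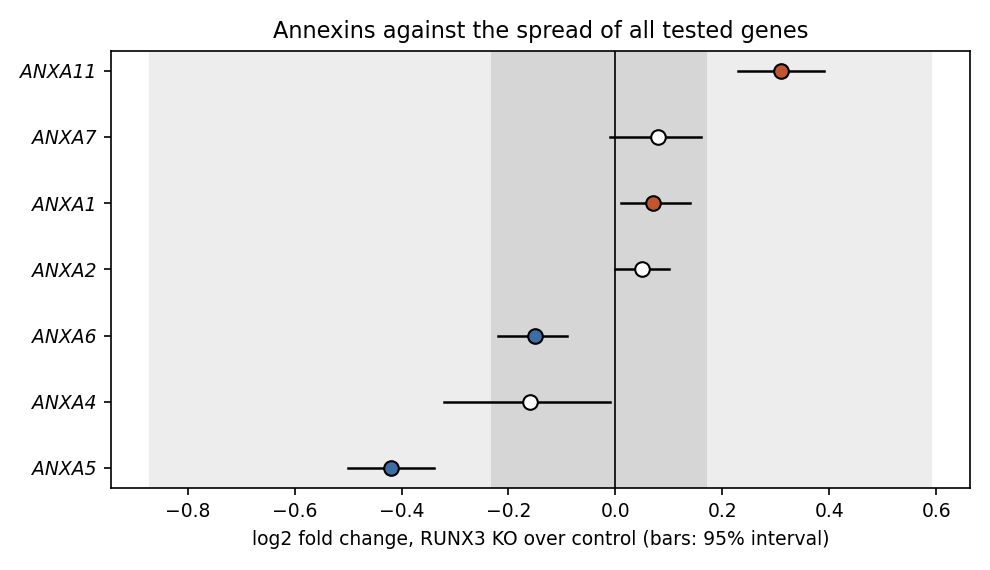
Log2 fold change of each tested annexin on the horizontal axis with its 95% interval; filled circles passed an adjusted p of 0.05 by edgeR. The darker band spans the interquartile range of all tested genes, -0.23 to 0.17, and the lighter band their 5th to 95th percentile, -0.87 to 0.59; ANXA5 and ANXA11 are the members outside the darker band.

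ANXA7 and ANXA11 have long N-terminal regions and are known for roles on internal membranes, with ANXA11 tethering RNA granules to lysosomes. The ANXA11 gene spans 81910645 to 81965328 on the minus strand of chromosome 10. It had 1230 and 1302 counts in control and 1583 and 1585 in RUNX3 KO libraries. Its level rose from 107 ± 4.34 to 133 ± 1.61 CPM, 24.0% higher (log2 fold change 0.31, SE 0.0423, 95% interval 0.23 to 0.39, edgeR adjusted p = 1.06e-09). Of all tested genes, 32.4% had a larger difference. The rise was called in all 12 alternatives, at 0.27 to 0.35 on the log2 scale when 1 library at a time was left out.

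ANXA7 (chromosome 10 from 75134859 to 75173834, minus strand), also called synexin, did not pass. Its counts were 1339 and 1443 in control and 1456 and 1506 in RUNX3 KO libraries, so control replicate 2 lay close to RUNX3 KO replicate 1. The level was 118 ± 6.27 against 124 ± 1.35 CPM, with a log2 fold change of 0.08 (95% interval -0.01 to 0.16, edgeR adjusted p = 0.126). Without control replicate 2 it was 0.13 and passed (edgeR adjusted p = 0.0302), and without any other single library it did not. A noncoding gene on the opposite strand shares 105 exonic bases with ANXA7, and whether reads were counted by strand is not given in the sources used here.

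ANXA3 and ANXA10, which lie on the plus strand of chromosome 4 (79472901 to 79531605 and 169013688 to 169108887), and ANXA8, on the plus strand of chromosome 10 (48255204 to 48279200), were not tested. ANXA10, an annexin known from the gastric epithelium, had 0 counts in every library, which allows at most 3 counts, or 0.254 CPM in a control library, for counting error alone. ANXA3 had 0 and 1 counts in control and 0 and 3 in RUNX3 KO libraries, so no fold change is given. ANXA8 was also at 0 in every library, as were the near-identical annotated copies ANXA8L1 and ANXA8L2. Of the 50-base words of the ANXA8 transcript, 99.6% also occur in transcripts of other genes, and reads that match several genes may not have been counted, so the 0 for ANXA8 does not limit its level. For ANXA2 this share was 38.2%, all with the pseudogenes ANXA2P1, ANXA2P2 and ANXA2P3, which had 0 to 9 counts each per library. ANXA11 shared 0.329% and no other member shared any. The level of ANXA2 may thus be understated, and its share of the family with it. Of the remaining symbols, ANXA13 was at 0 throughout and ANXA9 had 0 and 0 counts in control and 3 and 3 in RUNX3 KO libraries, at the floor of 3 counts.

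Levels of different members were compared per length, as RPKM, reads per kilobase of the canonical transcript scaled to the reads on genes of each library. ANXA2 led with 487 ± 11.3 RPKM in control and 497 ± 3.35 RPKM in RUNX3 KO cells, which was 52.6% and 54.7% of the summed annexin RPKM. ANXA1 followed with 169 ± 4.07 and 176 ± 2.55 RPKM. In control cells ANXA5 (103 ± 1.04 RPKM) stood above ANXA6 (90.0 ± 0.0943 RPKM), whereas in RUNX3 KO cells ANXA5 (76.0 ± 1.17 RPKM) stood below ANXA6 (79.9 ± 1.27 RPKM). This change of order depended on the length used. Per kilobase of coding sequence, a scale added after seeing the data, ANXA5 remained above ANXA6, at 176 and 129 in control and 130 and 114 in RUNX3 KO cells. ANXA7 came next with 48.5 ± 2.56 and 50.5 ± 0.573 RPKM, then ANXA11 with 16.0 ± 0.642 and 19.6 ± 0.228 RPKM and ANXA4 with 12.3 ± 0.635 and 10.8 ± 0.0864 RPKM. The canonical ANXA11 transcript is 6734 bases long with 1515 coding bases, so its RPKM depends most on this choice; per coding kilobase, ANXA7 and ANXA11 in RUNX3 KO cells did not differ beyond their spread (88.2 ± 1.00 and 87.1 ± 1.01). In RPKM, no neighbours in the order overlapped within a condition.

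**Figure D3:**
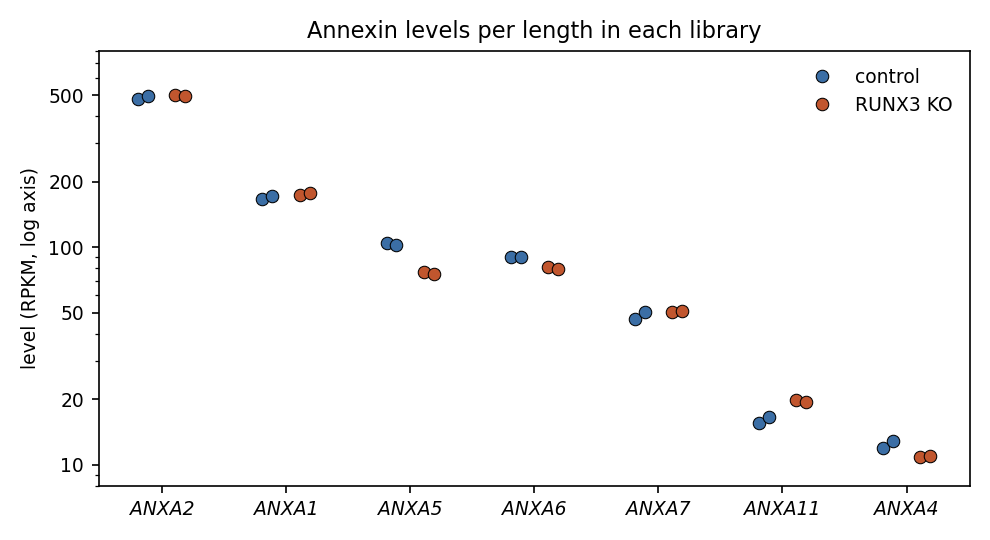
Level per length of the 7 tested annexins in RPKM (vertical log axis), ordered by the control mean; each circle is 1 library. ANXA2 lies between 479 and 500 RPKM in all 4 libraries, and ANXA5 and ANXA6 exchange places between control and RUNX3 KO.

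Summed over the family the conditions lay close together. The summed level was 1647 and 1695 CPM in control and 1677 and 1666 CPM in RUNX3 KO libraries, so that the groups overlapped. The summed counts of the 10 members were 0.166% and 0.170% of reads on genes in control and 0.166% and 0.165% in RUNX3 KO libraries. In summed RPKM the values were 913 and 938 in control and 912 and 908 in RUNX3 KO libraries, just without overlap, with ANXA2 and ANXA1 making up most of the sum. ANXA5 took 11.1% of the summed RPKM in control and 8.35% in RUNX3 KO cells.

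The tested members lie on different chromosomes, apart from ANXA7 and ANXA11, and the genes around them moved in different ways. For each member the 20 nearest tested genes on either side were taken. Around ANXA2, 33 of 40 neighbours were higher in RUNX3 KO cells (median 0.34 on the log2 scale), and 32 were at or above the 0.05 of ANXA2 itself. Around ANXA1 the median was 0.20, again above the member. Around ANXA5 it was 0.01, with 20 neighbours lower and 20 higher, and 8 fell at least as much as ANXA5. Around ANXA11 it was -0.05, and 4 of 40 rose at least as much. Relative to these medians ANXA5 stood at -0.43, ANXA11 at 0.36, ANXA2 at -0.28, ANXA6 at -0.24, ANXA7 at 0.14, ANXA1 at -0.13 and ANXA4 at -0.12. The distance of ANXA5 and ANXA11 from these medians was thus about the size of their own log2 fold changes. What the surroundings contribute to either difference was not tested.

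**Figure D4:**
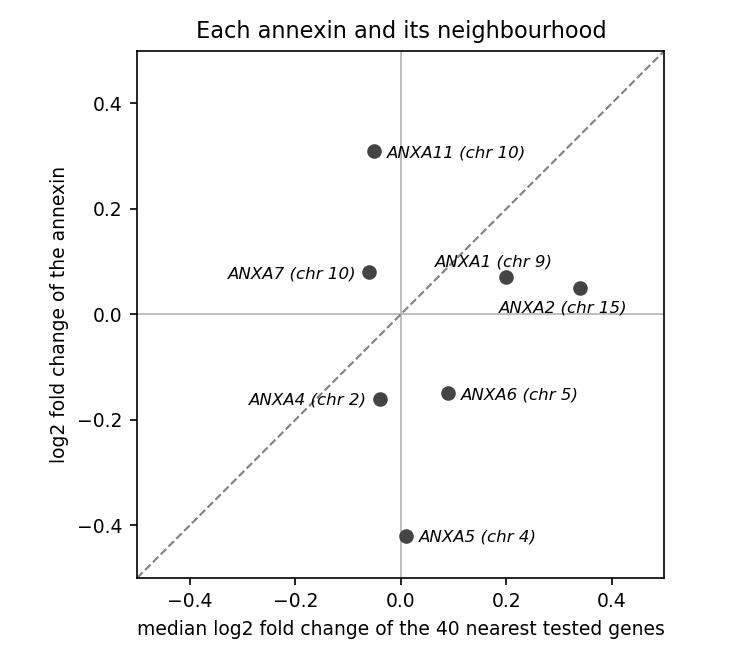
Log2 fold change of each tested annexin (vertical axis) against the median log2 fold change of its 40 nearest tested genes (horizontal axis); the dashed line marks equal values. ANXA5 and ANXA11 lie far from the dashed line with neighbourhoods near 0, while ANXA2 lies below it with a neighbourhood at 0.34.

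The direct protein partners of annexins include S100 proteins, penta-EF-hand proteins and AHNAK. Of 7 listed partners 6 were tested, of which 3 fell and 1 rose, with a median log2 fold change of -0.24. Over all tested genes 24.4% were lower and 24.5% higher, with a median of 0.00, and nothing particular to the partners is read from their count. S100A10, the light chain of the ANXA2 complex, had 1351 and 1365 counts in control and 1370 and 1369 in RUNX3 KO libraries, with a log2 fold change of 0.00 (95% interval -0.09 to 0.08, edgeR adjusted p = 0.986). The ratio of ANXA2 to S100A10, each per base of transcript, was 2.79 and 2.85 in control and 2.91 and 2.94 in RUNX3 KO libraries. S100A11, which binds the N-terminus of ANXA1, fell from 1849 and 1798 counts to 1274 and 1311 (log2 fold change -0.51, edgeR adjusted p = 1.08e-19), while ANXA1 did not fall. The ratio of ANXA1 to S100A11 accordingly went from 0.594 and 0.632 to 0.914 and 0.923.

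PDCD6 (ALG-2), a penta-EF-hand protein that binds ANXA11 and ANXA7, rose from 593 and 632 to 1032 and 1064 counts (log2 fold change 0.76, SE 0.0543, edgeR adjusted p = 2.17e-22). This was the partner that rose, and its 95% interval (0.65 to 0.87) lay above that of ANXA11, so that the ratio of ANXA11 to PDCD6 went from 0.342 and 0.340 to 0.253 and 0.246. SRI (sorcin), the partner of ANXA7, did not pass, with 855 and 908 counts in control and 839 and 818 in RUNX3 KO libraries (log2 fold change -0.10, edgeR adjusted p = 0.102), and it passed with library size alone and upper-quartile scaling (edgeR adjusted p = 0.048 and 0.0478). AHNAK, a giant scaffold that binds the ANXA2 complex, went from 11881 and 11557 to 9459 and 8860 counts (log2 fold change -0.37, edgeR adjusted p = 7.41e-24). S100A4, another ligand of ANXA2, went from 682 and 709 to 202 and 195 counts, the lowest log2 fold change among the partners at -1.82 (edgeR adjusted p = 1.22e-36). S100A6, a ligand of ANXA11, had 0 or 1 counts in each library.

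The formyl peptide receptors FPR1, FPR2 and FPR3, through which ANXA1 acts outside the cell, were at 0 in every library. PLA2G4A, the cytosolic phospholipase that ANXA1 inhibits, had 9 and 7 counts in control and 19 and 15 in RUNX3 KO libraries (log2 fold change 1.06, edgeR adjusted p = 0.0247), a call lost in 6 of 11 alternatives (adjusted p 0.0247 to 0.28). Of 7 genes for plasmin generation at the surface 3 were tested and 1 fell, beside 24.4% of all tested genes. This was the protease inhibitor SERPINE2, with 44 and 41 counts in control and 13 and 12 in RUNX3 KO libraries (log2 fold change -1.77, edgeR adjusted p = 3.10e-07). PLAT and PLG, the activator and the zymogen that ANXA2 binds, had at most 1 count.

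Of 14 symbols listed for membrane repair 11 were tested, of which 3 fell and 3 rose, beside 48.9% called of all tested genes, with a median log2 fold change of 0.00 in both. MYOF, a ferlin that takes part in membrane fusion, changed by -0.78 (SE 0.123), and CAPN2, a calpain subunit, by -0.45. SYT7, a calcium sensor of lysosome exocytosis, changed by 0.69 (SE 0.120). Their edgeR adjusted p-values were 7.07e-08 for MYOF and 7.85e-07 for SYT7. Among 10 genes for phosphatidylserine exposure, 7 were tested, 2 fell and 1 rose, again beside 48.9% called of all tested genes, with a median of -0.14 beside 0.00. PLSCR1, a scramblase-family protein, changed by -0.65 (edgeR adjusted p = 1.07e-06). Copines, which like annexins bind phospholipids through calcium, had 5 of 9 members tested and 3 called, beside the same 48.9%. CPNE1 and CPNE2 were called lower (log2 fold changes -0.47 and -0.26), but only 1 copine was with DESeq2, with no filter and without control replicate 1, RUNX3 KO replicate 1 or RUNX3 KO replicate 2, where CPNE2 lost its call. CPNE8 rose from 11 and 9 to 177 and 203 counts. The shift of CPNE8 was 4.22 on the log2 scale (edgeR adjusted p = 2.27e-31), where the largest among the annexins was -0.42.

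**Figure D5:**
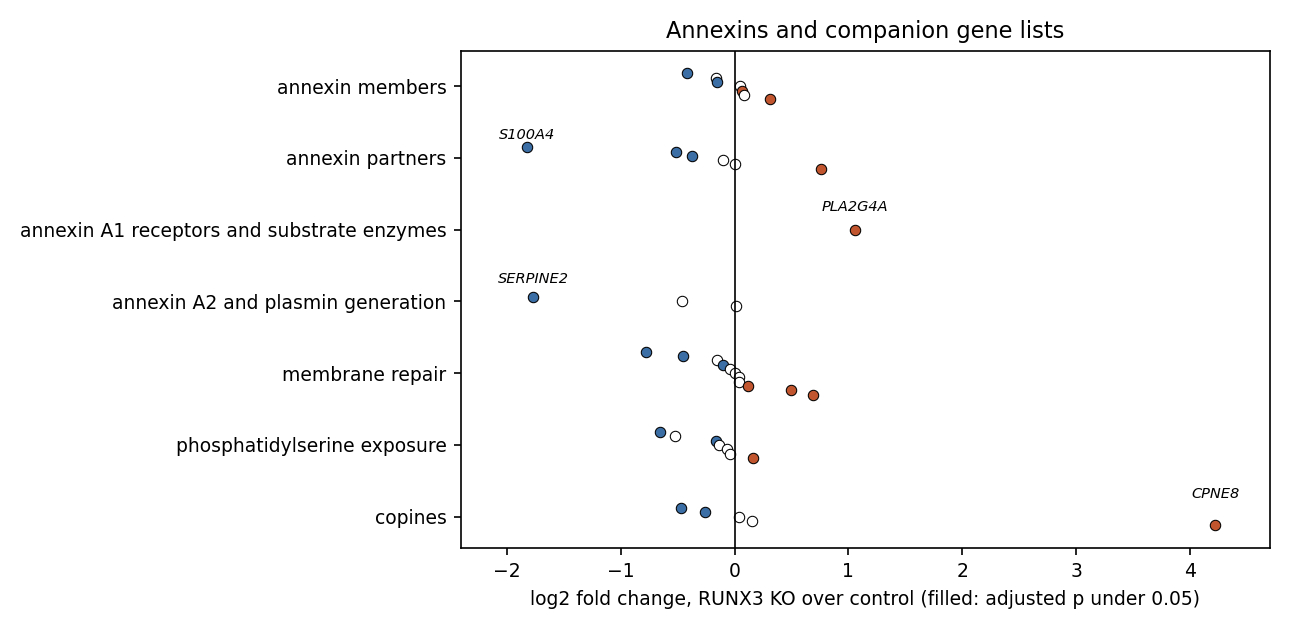
Log2 fold change (horizontal axis) of every tested gene in the annexin family and in each companion list (rows); filled circles passed an adjusted p of 0.05 by edgeR. The annexins lie between -0.42 and 0.31, a narrower range than that of the partners, from -1.82 for S100A4 to 0.76 for PDCD6.

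The tested genes whose profile over the 4 libraries lay nearest to that of ANXA5, by Euclidean distance of mean-centred log2 CPM, included C6orf223 (distance 0.0169) and C22orf28 (0.0185). Each of them changed by -0.41 on the log2 scale. With 4 libraries in 2 groups, such likeness mostly restates a similar fold change.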

How the data were processed

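The authors deposited, for each of 4 libraries, raw read counts per gene symbol without normalization. The submitters' processing notes name bcl2fastq, HISAT2 2.1.0, HTSeq and hg19, whereas the study's methods name STAR and featureCounts with GENCODE genes; the 5 closing rows follow the form of htseq-count. Those rows took 25.9% to 28.1% of all counts and were left out. The strand setting is not given in the sources used here.

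The analysis used edgeR 4.0.16 in R 4.3.3: filterByExpr at its defaults (minimum count 10, minimum total 15), TMM scaling, glmQLFit and glmQLFTest with a prior count of 0.125, and Benjamini-Hochberg adjustment over 12967 genes. RUNX3 KO was compared with control without a replicate block. SE is the absolute log2 fold change over the square root of the F statistic. A fold change of 2 with p of 0.05 is the criterion of the study's methods. Levels are CPM on TMM-scaled libraries, and RPKM on reads on genes. The chi-square per degree of freedom over genes was 1.22 for the control pair, 1.18 for the RUNX3 KO pair and 17.1 and 17.3 between conditions.

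Gene positions and transcripts came from GENCODE on GRCh37, which is hg19. Of the symbols, 19607 matched by name and 2160 by a RefSeq synonym, and 94.0% of tested genes had a position. Promoter windows came from RefSeq (GRCh38.p14). Protein sequences were not used here.

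The members and companion lists were chosen with earlier results of these data known. Named beside the 10 members and RUNX3 were direct partners and receptors, the largest called rise and fall of each list, and profiles nearest to the most changed member, of which some genes are not reported here; CAPN2, CPNE2, PLAT, PLG, ANXA9 and ANXA13 and the pseudogenes were named after their values were seen. Alternatives were 3 other scalings, DESeq2 1.42.0, limma-voom (limma 3.58.1), 2 other filters, a replicate block and each library left out. Steps were tested on simulated counts.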

Additional observations from a re-analysis of the deposited data

How the results depend on the processing

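ANXA5 and ANXA11 kept their direction and call in all 12 alternatives, and no tested annexin changed direction in any. The number of annexins called higher was 1 with library size alone, upper-quartile scaling, DESeq2, no filter and 10 counts in every library, where ANXA1 lost its call at log2 fold changes of 0.05, 0.05, 0.07, 0.08 and 0.07; with limma-voom ANXA1 was at 0.07 and ANXA2, at 0.05, gained one. ANXA4 was called lower at -0.18 with library size alone and upper-quartile scaling. With each library left out in turn, 1 to 2 annexins were lower and 1 to 4 higher, RUNX3 lay between -0.86 and -0.55, ANXA1 between 0.05 and 0.10, ANXA2 between 0.03 and 0.07, ANXA6 between -0.17 and -0.14 and ANXA7 between 0.02 and 0.13. Over all tested genes, 1863 were lower and 1829 higher with DESeq2, against 3158 and 3183, and 1378 to 2806 lower and 1285 to 2745 higher with a library left out. At a fold change of 2, 298 were lower and 160 higher when 10 counts were required in every library, against 520 and 274. Of the companion lists, the number of higher genes among ANXA1 receptors and enzymes, which is PLA2G4A alone, was 0 with DESeq2, with no filter, with any library left out (0 to 0) and with 10 counts in every library, which removed it. For phosphatidylserine exposure 1 gene was lower with DESeq2 and with no filter (1 to 3 with a library left out) and 0 were higher with DESeq2 (0 to 1). Of copines 1 was lower with DESeq2 and with no filter (1 to 2), and 0 were higher with 10 counts in every library, which removed CPNE8. S100A10, with a main value under 0.01 in size, changed sign with no filter (0.00) and with a library left out (-0.01 to 0.01). The causes were not tested.

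The replicate block left 1 annexin called higher, since ANXA1 (0.07) had an adjusted p of 0.0609, and changed no other member's call. Same-numbered libraries did not deviate together (correlation 0.0257 over genes). The replicate pairs lay near counting noise (chi-square per degree of freedom 1.22 and 1.18), so this cannot show whether the numbers mark a pairing. At this depth ANXA3 and ANXA10 could not be compared. ANXA8, at 0 counts in every library, could not be compared either, and nearly all of its sequence is shared with other genes. Whether reads of ANXA8 went uncounted for this was not tested.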
